A study of Mus musculus with 48 samples.

Results

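Pizotifen and meclizine are both antihistamines that block the histamine H1 receptor, and their transcriptional effects were compared directly in STHdhQ111 cells. The comparison used every sample labelled with either compound, which is 3 pizotifen samples and 3 meclizine samples, 6 of the 48 samples of the series. STHdhQ111 cells are a mouse striatal progenitor line, labelled C57BL/6, that is homozygous for a knock-in of mutant huntingtin, the gene of Huntington's disease. The line is conditionally immortalized, so its samples share 1 cell line and the huntingtin mutation, and there is no wild-type arm with either compound. All 6 samples were kept in serum-free medium for 24 hours, with pizotifen at 5 µM or meclizine at 10 µM, and RNA was then sequenced. The doses are those the study chose as most protective, so compound and dose cannot be told apart in any difference reported here. The study placed pizotifen in its Group A and meclizine in its Group B, using metabolite profiles of these treatments. In its clustering of the RNA data the compounds of both groups fell together, and it described their RNA profiles as nearly indistinguishable.

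Replicates 1, 2 and 3 of both compounds were collected on days 1, 2 and 3, each pair at the same labelled time of its day. The 3 samples with haloperidol at 0.5 nM in the same line were collected in the same slots and serve below as a reference at a nanomolar dose. The 3 STHdhQ111 vehicle samples share the days but none of the day and time slots, and are given only as a second reference. Values are the authors' normalized abundances on a log2 scale, on which a difference of 1 is a doubling. A gene was called when its adjusted p was under 0.05 by limma, a linear model over all 48 samples with Benjamini-Hochberg adjustment over 13409 genes. The labels do not say whether replicates came from separate cultures, so these p-values measure the spread between samples, which may be technical. The table used holds no read counts, and sequencing depth could not be given for any sample. The linear sums of the values differed by at most 1.11-fold across the series.

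Antihistamines of this kind are basic, fat-soluble amines. Pizotifen carries a piperidine on a fused tricycle and is used against migraine, where it also blocks serotonin receptors. Meclizine carries a piperazine with a diphenylmethyl group and is used against motion sickness. It is also known to inhibit PCYT2, an enzyme of phosphatidylethanolamine synthesis, and to lower mitochondrial respiration. Many amines of this type enter lysosomes and bind sterol enzymes and sigma receptors. In mammalian cells, a shortage of sterol in the endoplasmic reticulum releases the SREBP transcription factors, which switch on the genes of sterol synthesis and uptake. A shortage of amino acids, mitochondrial stress or misfolded protein slows translation and raises the transcription factor ATF4, which switches on genes of amino acid uptake and synthesis and of tRNA charging. This second program is the integrated stress response.

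Hrh1, the receptor gene that names this drug class, was not called between the compounds. The log2 abundance of this histamine H1 receptor gene was 1.11, 1.11 and 1.11 with pizotifen and 1.18, 1.13 and 1.09 with meclizine. Of all genes with a symbol, 26.8% had a lower mean over the 6 samples. The values of the compounds overlapped, and the difference was -0.02 with a 95% interval from -0.09 to 0.05 (adjusted p = 0.76). Its mean of 1.12 lay near the minimum of 1 for testing. Values this low hardly vary on the deposited scale, so the narrow interval does not show that the receptor RNA was equal. Of 28 amine and sigma receptor genes listed, 22 were in the table and 9 reached the minimum mean of 1. Of the 9, 2 were called, both higher with pizotifen, where 16.2% of all genes were called in either direction. Tmem97, the sigma-2 receptor, read 9.89, 9.74 and 9.85 with pizotifen and 9.28, 9.66 and 9.37 with meclizine, without overlap, and was higher with pizotifen by 0.39 ± 0.08 (SE, adjusted p = 0.00042). Against haloperidol, Tmem97 was higher with both compounds, by 0.64 with pizotifen and by 0.25 with meclizine.

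Htt, the huntingtin gene, was not called between the compounds. It read 7.79, 7.72 and 7.66 with pizotifen and 7.71, 7.89 and 7.81 with meclizine, and the ranges overlapped. The difference was -0.08, with a 95% interval from -0.24 to 0.08 (adjusted p = 0.55). Against haloperidol, Htt was lower with both, by a difference of -0.34 with pizotifen and -0.26 with meclizine.

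Of all genes tested, 2177 differed between pizotifen and meclizine (16.2%). Of these, 1069 were higher with pizotifen (7.97% of genes tested) and 1108 were higher with meclizine (8.26%). Most differences were small, and 214 called genes (1.60%) differed by more than 0.5 and 16 (0.119%) by more than 1. The median difference over all genes was -0.003. Against haloperidol, 1973 genes (14.7%) were called with pizotifen at 5 µM and 3448 (25.7%) with meclizine at 10 µM. Against vehicle the counts were 2404 (17.9%) and 3589 (26.8%).

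The size of the difference varied between the collection days. Among the 2177 called genes, the sign of the difference within a day was that of the call for 2175 genes on day 1, 2125 on day 2 and 2174 on day 3. The median size of those differences was 0.338 on day 1, 0.166 on day 2 and 0.332 on day 3. Meclizine replicate 2 was the nearest of the 3 meclizine samples to the pizotifen mean in 1712 of the 2177 genes, against 293 for replicate 1 and 172 for replicate 3. The pizotifen samples were not counted in this way. Leaving out meclizine replicate 1, 2 or 3 gave 1224, 2453 or 1087 calls. Leaving out pizotifen replicate 1, 2 or 3 gave 1403, 1874 or 1471, so the count was highest without the day 2 sample for each compound. Whether the collection time or the sample of either compound gave the smaller differences of day 2 cannot be told apart, since each slot holds 1 sample of each.

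**Figure D1:**
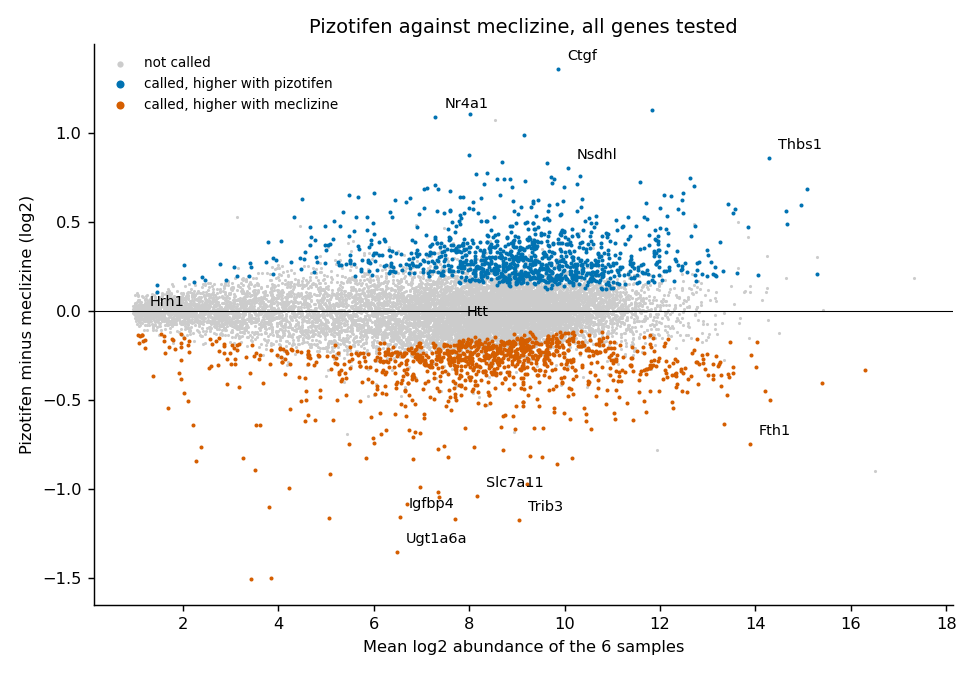
Each point is 1 of 13409 genes, with its mean log2 abundance over the 6 samples on the x axis and its log2 difference, pizotifen minus meclizine, on the y axis. Called genes (adjusted p under 0.05) are blue where higher with pizotifen (1069) and orange where higher with meclizine (1108); most lie within 0.5 of 0, and Hrh1 and Htt lie near 0.

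The gene with the largest difference towards pizotifen was Ctgf. Ctgf, a matricellular growth factor also called Ccn2 (chr10:24595442-24598683, plus strand, GRCm38), read 10.63, 10.42 and 10.57 with pizotifen and 9.04, 9.88 and 8.64 with meclizine. The groups did not overlap, and pizotifen was 2.56-fold higher (log2 difference 1.36 ± 0.17 SE, adjusted p = 5.0e-07). Against haloperidol, Ctgf differed in opposite directions, by 0.80 with pizotifen and by -0.56 with meclizine, both called. Its relative Cyr61, or Ccn1, was higher with pizotifen by 1.13 (adjusted p = 1.4e-06) and likewise lay above haloperidol with pizotifen (0.44) and below it with meclizine (-0.69).

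Further genes on this side were Klhl30 (1.11), a gene of the kelch family, Nr4a1 (1.09), an early response nuclear receptor, and Ptgs2 (0.99), the inducible cyclooxygenase. They also included Ccdc80 (0.83), a matrix protein, and Nsdhl (0.80), a sterol demethylating enzyme. Ptgs2 stood above haloperidol with pizotifen by 1.08 and was not called with meclizine (0.09). Thbs1, which encodes the matrix protein thrombospondin 1, read 14.73, 14.61 and 14.77 with pizotifen and 13.87, 14.12 and 13.55 with meclizine, a non-overlapping difference of 0.86 ± 0.14 (SE, adjusted p = 2.6e-05). Against haloperidol it was lower with meclizine (-0.96, adjusted p = 1.6e-06), while the value with pizotifen was -0.10 (adjusted p = 0.69). Ccdc80 gave -0.70 with meclizine, called, and 0.14 with pizotifen, not called.

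Where the mean over the 6 samples reached 6, the largest difference towards meclizine was that of Ugt1a6a, a glucuronosyltransferase of drug conjugation. It read 5.62, 5.94 and 5.87 with pizotifen and 7.10, 7.04 and 7.36 with meclizine, without overlap, and was 2.56-fold higher with meclizine (difference -1.36 ± 0.16 SE, adjusted p = 1.4e-07). Ugt1a6a lies on chr1:88134809-88218997 (GRCm38), where other Ugt1a genes overlap it on the same strand and share exons with it, so its assignment among them is uncertain. Against haloperidol it was called with meclizine (1.13) and not with pizotifen (-0.23, adjusted p = 0.36). Igfbp4, which binds insulin-like growth factors, was higher with meclizine by the same pattern, with a difference of -1.16 between the compounds, and 1.28 and 0.12 against haloperidol for meclizine and pizotifen. Pappa, the protease that cleaves IGFBP4, was higher with meclizine too (-0.99), and against haloperidol it was higher with meclizine (0.54) and lower with pizotifen (-0.45).

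The other genes on this side were Trib3 (-1.18), Cth (-1.09) and Slc7a11 (-1.04), described with the stress response below, Prl2c2 (-1.17), a prolactin family hormone with near-identical copies, and Stbd1 (-1.04), a glycogen-binding protein. Cdsn (-1.02), the adhesion protein corneodesmosin, and the noncoding snoRNA host 2410006H16Rik (-0.97) completed the set. All 20 genes that the naming rule took, of which 18 are named here, were called under each of the 16 alternative analyses. Among genes with a mean under 6, which the naming rule leaves out, Car6 (-1.51), Avil (-1.50), Angptl6 (-1.17) and Ppef1 (-1.10) were also higher with meclizine by more than 1. These 4 were chosen after their values were seen.

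**Figure D2:**
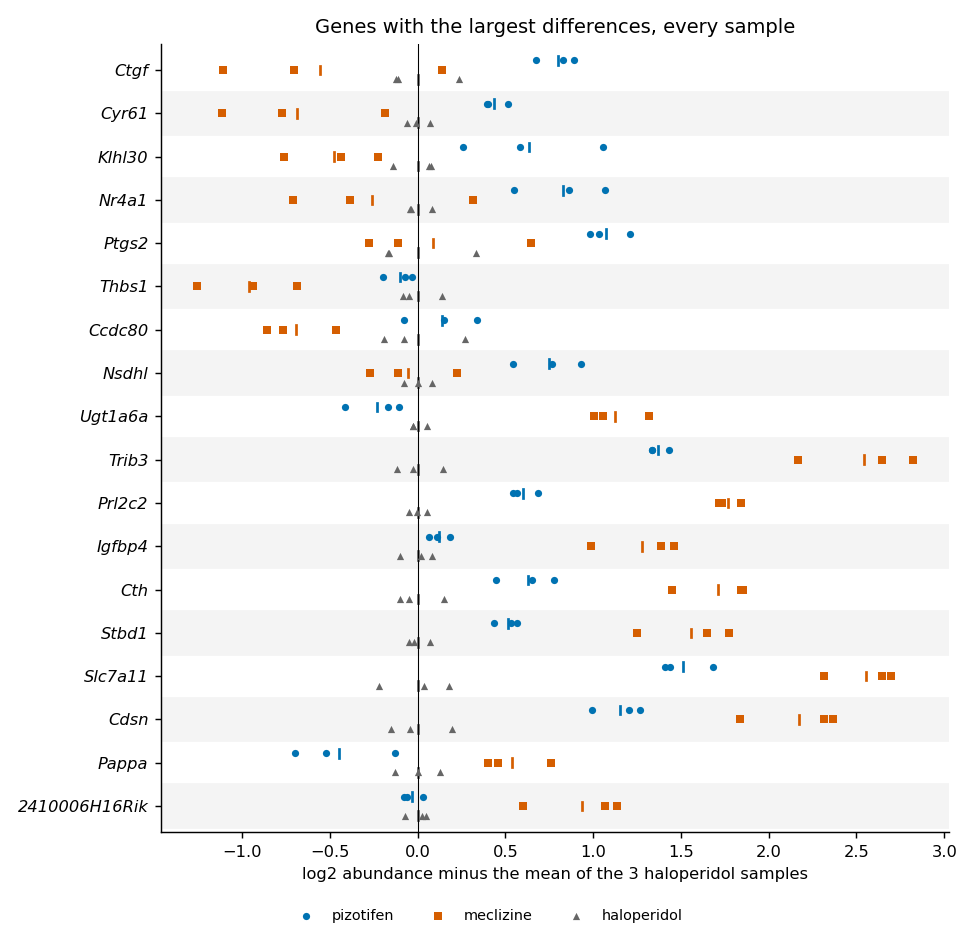
The log2 abundance of 8 of the 10 genes furthest above and of the 10 furthest below in pizotifen against meclizine is plotted for each pizotifen (blue circles), meclizine (orange squares) and haloperidol (grey triangles) sample, relative to the mean of the 3 haloperidol samples. Vertical ticks are group means; pizotifen and meclizine samples do not overlap for any of the 18 genes, and both compounds lie above haloperidol for Trib3, Prl2c2, Cth, Stbd1, Slc7a11 and Cdsn.

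Every listed enzyme of sterol synthesis was higher with pizotifen than with meclizine. All 20 of 20 listed enzymes, from acetoacetyl-CoA thiolase to cholesterol, were called in that direction, where 7.97% of all genes were, and the median difference was 0.62 against -0.003 for all genes. The values ran from 0.45 for Sqle, squalene epoxidase, to 0.80 for Nsdhl, and the 3 pizotifen samples lay above the 3 meclizine samples for all 20 (17.1% of all genes). Against haloperidol, all 20 were higher with pizotifen (7.59% of all genes), with a median of 0.53. With meclizine the median was -0.05, and 3 of the 20 were called, each lower (12.8% of all genes): Hmgcs1 (-0.24), Mvk (-0.21) and Hsd17b7 (-0.26). Against vehicle the medians were 0.53 with pizotifen and 0.002 with meclizine.

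The promoter of Hmgcs1, which makes the HMG-CoA that the pathway starts from, is shown because it holds the sterol regulatory element core by which SREBP factors are known to bind. The stretch lies on chr13:119690169-119690267 (GRCm38.p6, plus strand, RefSeq), upstream of the start of the gene, and the capitals mark the match to TCACNCCAC.
Hmgcs1: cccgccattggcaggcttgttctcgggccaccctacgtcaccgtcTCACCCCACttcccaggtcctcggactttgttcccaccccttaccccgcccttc
Of the 26 genes of the sterol synthesis and sterol sensing lists that were called higher with pizotifen, 18 had a promoter of 300 bases in the RefSeq table, and 1 of these, Hmgcs1, held the letters on either strand. Among all 27025 genes with such a promoter, 1.44% did.

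Hmgcs1 read 12.92, 12.63 and 12.86 with pizotifen and 11.87, 12.41 and 12.14 with meclizine. The haloperidol samples, at 12.39, 12.40 and 12.36, lay between the groups apart from meclizine replicate 2, which lay just above them. The difference between the compounds was 0.66 ± 0.08 (SE, adjusted p = 1.9e-07), or 1.58-fold. Cyp51, the lanosterol demethylase, was higher with pizotifen by 0.74. Nsdhl read 10.65, 10.27 and 10.49 with pizotifen and 9.45, 9.95 and 9.61 with meclizine, and its haloperidol samples (9.72, 9.80 and 9.64) fell within the meclizine range. The median of the 20 enzymes was 0.90 within day 1, 0.25 within day 2 and 0.73 within day 3. All 20 were called under every alternative, leaving out any replicate included.

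**Figure D3:**
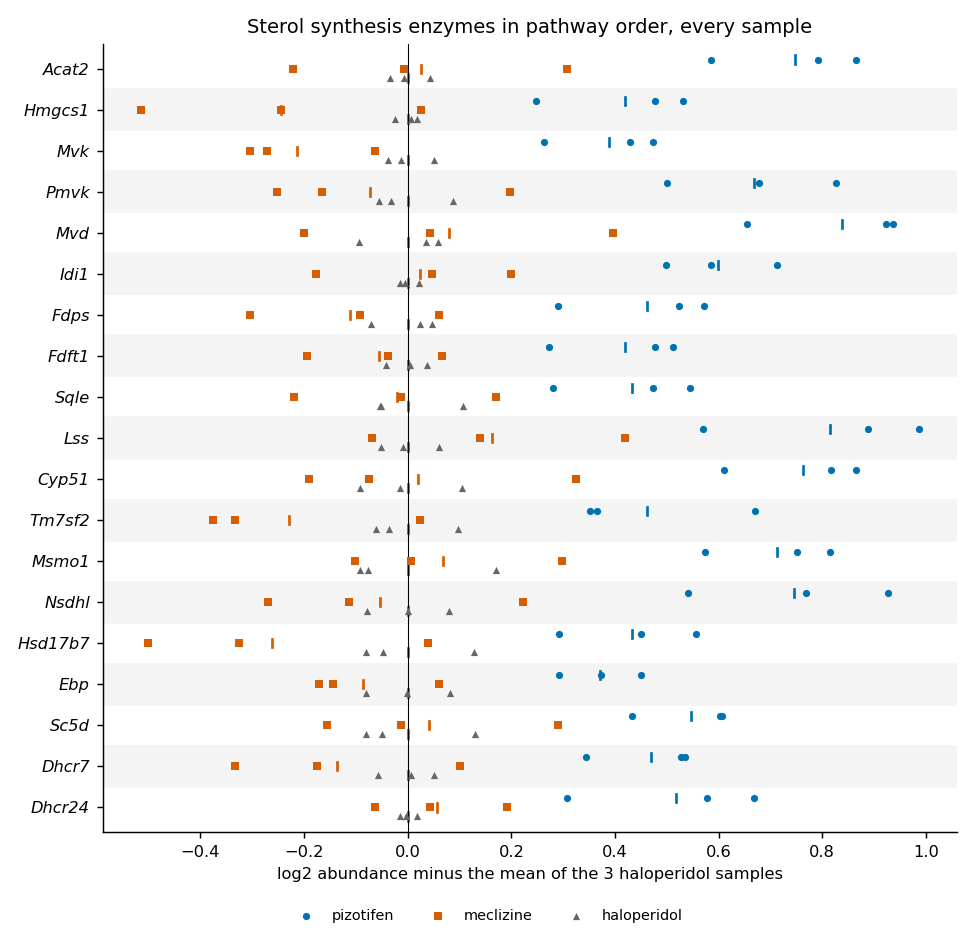
For each of 19 of the 20 sterol synthesis enzymes, from the first step at the top to the last, the log2 abundance of each pizotifen, meclizine and haloperidol sample is plotted relative to the haloperidol mean. The 3 pizotifen samples lie right of the 3 meclizine samples for every enzyme shown, and 1 meclizine sample, replicate 2, often lies between the pizotifen samples and the other meclizine samples.

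Genes that sense and take up sterol were higher with pizotifen in part. Of 12 tested, 6 were called higher with pizotifen, where 7.97% of all genes were, and the median difference was 0.21. The count was 4 without meclizine replicate 1, and the highest leave-one-out count was 7. Insig1, which retains SREBP in the endoplasmic reticulum and is itself its target, was higher by 0.62 and the sterol carrier Stard4 by 0.46. The SREBP genes themselves, Srebf1 (0.31) and Srebf2 (0.27), were also among the 6. Npc1, which exports cholesterol from lysosomes, differed between the compounds by -0.02 (adjusted p = 0.90), and against haloperidol it was higher with each, by 0.29 with pizotifen and 0.31 with meclizine. Of 6 genes of sterol efflux, none was called by limma, and 2 had an unadjusted p under 0.05.

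Most genes of fatty acid synthesis were also higher with pizotifen. Of 16 genes tested, 11 were called higher with pizotifen (7.97% of all genes), with a median difference of 0.31. The count was 7 without meclizine replicate 1, and 7 with the 6 samples fitted alone. Acss2, which makes acetyl-CoA from acetate, was higher by 0.64, the acyl-CoA synthetase Acsl3 by 0.63, the desaturase Scd2 by 0.59 and the elongase Elovl6 by 0.56. Acaca, the acetyl-CoA carboxylase of the committed step, differed by -0.01 (adjusted p = 0.95). Against haloperidol, 13 of the 16 were higher with pizotifen (7.59% of all genes). With meclizine 2 were higher (12.9% of all genes) and 1 was lower (12.8%).

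Phospholipid synthesis was examined because meclizine is known to act on PCYT2. Of 15 genes of phosphatidylethanolamine and phosphatidylcholine synthesis, 2 were called higher with pizotifen and 1 with meclizine, against 7.97% and 8.26% of all genes. The first count was 1 without meclizine replicate 1, and the second was 2 without pizotifen replicate 2. Pcyt2 itself read 10.26, 9.94 and 10.27 with pizotifen and 9.56, 9.89 and 9.70 with meclizine, with the second pizotifen sample just above the meclizine range. It was higher with pizotifen by 0.44 ± 0.09 (SE, adjusted p = 0.00058). Against haloperidol it was higher with pizotifen (0.48) and was not called with meclizine (0.03, adjusted p = 0.84). Pcyt1b, of phosphatidylcholine synthesis, was higher with pizotifen by 0.36 and Pemt, which methylates phosphatidylethanolamine, was higher with meclizine (-0.40).

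Most listed genes of the integrated stress response, regulators and targets together, were higher with meclizine. Of these 21 genes, 12 were called higher with meclizine, where 8.26% of all genes were. In the other direction 1, the eIF2α kinase gene Eif2ak3, was higher with pizotifen (0.26), where 7.97% of all genes were. That count was 2 without replicate 2 of either compound. The median difference was -0.36. The count of 12 fell to 7 without meclizine replicate 1. Against haloperidol both compounds stood above the reference. Of the 21 genes, 15 were higher with pizotifen (median 0.46), where 7.59% of all genes were. With meclizine 16 were higher (median 0.90, 12.9% of all genes being higher) and 1 was lower (12.8%). Atf4 read 11.87, 11.82 and 11.86 with pizotifen, 12.18, 12.06 and 12.11 with meclizine, and 10.98, 10.97 and 10.98 with haloperidol. The 3 groups did not overlap, and the difference between the compounds was -0.27 ± 0.09 (SE, adjusted p = 0.037), against differences from haloperidol of 0.87 and 1.14.

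Several genes downstream of ATF4 had larger differences. Trib3, a pseudokinase induced by ATF4 and CHOP (chr2:152337422-152344032, minus strand, GRCm38), read 8.42, 8.42 and 8.52 with pizotifen, 9.91, 9.25 and 9.74 with meclizine and 6.97, 7.23 and 7.06 with haloperidol. It was 2.26-fold higher with meclizine than with pizotifen (-1.18 ± 0.21 SE, adjusted p = 9.3e-05). Ddit3, which encodes CHOP, was higher with meclizine by a difference of -0.83 (adjusted p = 9.9e-06), Ppp1r15a, which restores translation, by -0.82, and the secreted glycoprotein gene Stc2 by -0.99. Chac1, a glutathione-degrading enzyme, was not called between the compounds. It stood 1.47 above haloperidol with pizotifen and 1.72 with meclizine, and the compounds differed by -0.25 (adjusted p = 0.24).

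**Figure D4:**
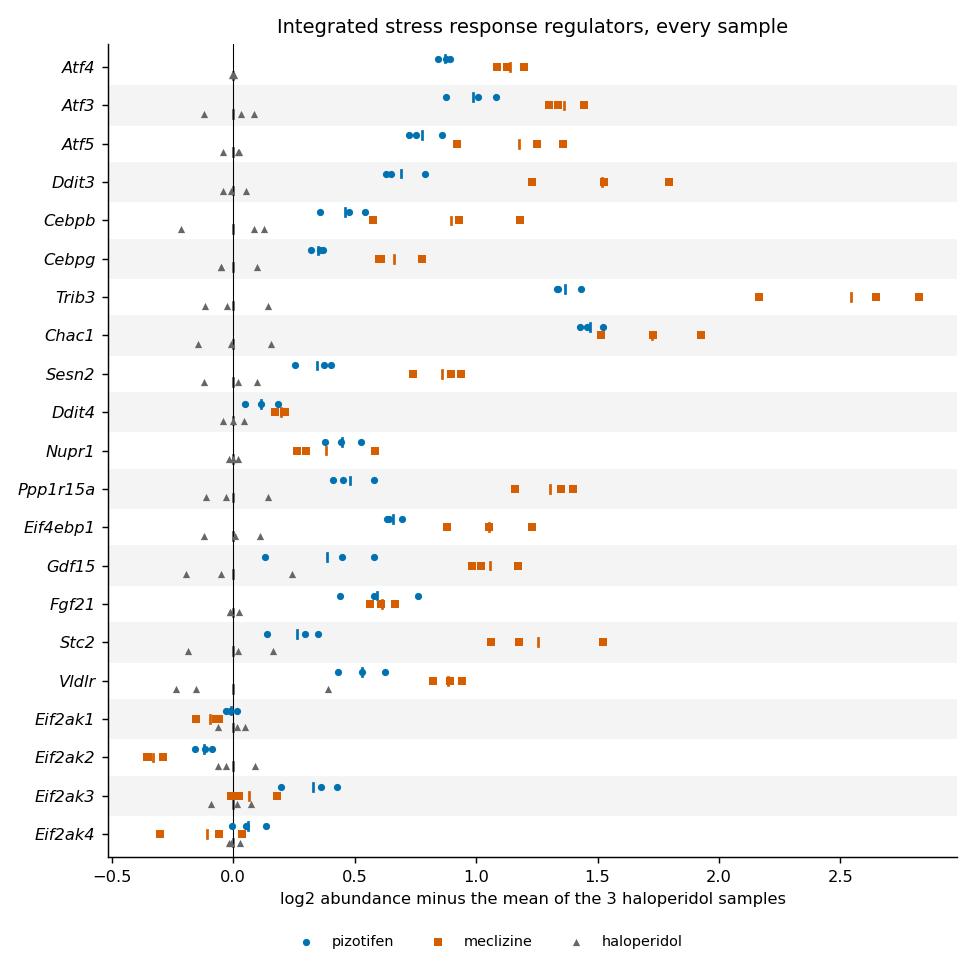
The log2 abundance of 21 integrated stress response genes, regulators and targets, is plotted for each sample relative to the haloperidol mean. For Atf4, Trib3, Ddit3 and most others the pizotifen samples lie between haloperidol and meclizine; the kinase genes Eif2ak1 to Eif2ak4, at the bottom, lie within 0.5 of the reference.

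Genes of amino acid supply and tRNA charging were also higher with meclizine in part. The counts called higher with meclizine were 7 of 15 for serine and one-carbon enzymes, 8 of 15 for other amino acid enzymes, 7 of 12 for amino acid transporters and 11 of 20 for cytosolic tRNA synthetases. The share over all genes was 8.26% in that direction and 7.97% in the other. The median differences were -0.16, -0.24, -0.45 and -0.23. In the other direction, 1 gene was called across the 4 lists, the thymidylate synthase gene Tyms (0.17), which was not called without meclizine replicate 1 or 3 or pizotifen replicate 2 or 3, nor with the 6 samples alone. Without meclizine replicate 1 the 4 counts were 4, 3, 5 and 6, and that of the amino acid enzymes was also 5 without any 1 pizotifen replicate and 4 without meclizine replicate 3.

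In these lists and the list of integrated stress response genes, 45 genes were called higher with meclizine, and 36 of them had a RefSeq promoter. TGATGNAA is the core of the amino acid response element that ATF4 binds with C/EBP factors. Of the 36, 11 (30.6%) held it on either strand. The share was 4.51% among all 27025 genes with a promoter. The lists were made of stress response and amino acid genes, so these shares do not bear on the difference between the compounds. Uncalled members of the lists were not compared. The stretches of the 3 with the largest difference and a match upstream of the start are shown to let the element be seen, with the matches in capitals, each read along the gene's own strand (GRCm38.p6, RefSeq). They lie on chr3:50443627-50443724 for Slc7a11, chr11:120643799-120643896 for Pycr1 and chr6:7693210-7693277 for Asns, all on the minus strand.
Slc7a11: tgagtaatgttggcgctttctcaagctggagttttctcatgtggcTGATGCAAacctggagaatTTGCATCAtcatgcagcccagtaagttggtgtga
Pycr1: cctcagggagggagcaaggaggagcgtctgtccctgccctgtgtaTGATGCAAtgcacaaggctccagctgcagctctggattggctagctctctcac
Asns: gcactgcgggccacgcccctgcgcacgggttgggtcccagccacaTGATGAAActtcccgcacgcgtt
The Slc7a11 stretch holds 2 matches, the second on the opposite strand. A match describes the letters and does not show that a factor was bound in these cells.

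Slc7a11, the cystine transporter, read 7.55, 7.82 and 7.58 with pizotifen, 8.83, 8.45 and 8.78 with meclizine and 6.18, 6.32 and 5.92 with haloperidol. The groups were ordered without overlap, and the difference between the compounds was -1.04 ± 0.23 (SE, adjusted p = 0.0013). Cth, which makes cysteine from cystathionine, was higher with meclizine by a difference of -1.09 (adjusted p = 4.5e-06), while Cbs, the step before it, differed by -0.02. Pycr1, of proline synthesis, and Asns, asparagine synthetase, differed by -0.49 and -0.48.

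Enzymes of the folate pathway differed among themselves. Aldh1l2 (-0.86), Shmt2 (-0.61), Mthfd1l (-0.44) and Mthfd2 (-0.43), which work inside mitochondria, were each called higher with meclizine, and Mthfd2l, also mitochondrial, was not (-0.16). Of their cytosolic counterparts, Shmt1 was called (-0.25), while Mthfd1 (-0.11) and Aldh1l1 (0.05) were not. Transporters higher with meclizine included Slc7a5 (-0.57) and its partner Slc3a2 (-0.57), which carry leucine, and the glycine transporter Slc6a9 (-0.66). Among tRNA synthetases the largest differences were those of Eprs (-0.51), Wars (-0.47) and Lars (-0.45).

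Protein folding genes differed in both directions, where 7.97% of all genes were higher with pizotifen and 8.26% with meclizine. Of 19 ER chaperone genes, 9 were higher with pizotifen and 1, Hyou1 (-0.23), with meclizine, with Syvn1, a ubiquitin ligase of ER-associated degradation, at 0.44 and the lectin chaperone Calr at 0.27. The count of 9 was 3 without meclizine replicate 1 or 3, and 4 without pizotifen replicate 1 or with the 6 samples alone, and that of 1 was 0 without any 1 of the 6 samples. Hspa5, the main ER chaperone BiP, lay 0.51 and 0.58 above haloperidol with pizotifen and meclizine, and the difference between them was -0.07 (adjusted p = 0.64). Of 12 mitochondrial chaperones and proteases, 6 were higher with meclizine, among them the chaperones Hspa9 (-0.45) and Hspd1 (-0.38) and the protease Lonp1 (-0.44), and no leave-one-out count was under 6. Of 11 cytosolic heat shock genes, 3 were higher with pizotifen, Bag3 (0.35) among them, and 2 with meclizine, counts that were 1 and 0 without replicate 3 of either compound. The count of 2 was also 0 without meclizine replicate 1 and 1 without pizotifen replicate 1 or 2.

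Messages of the mitochondrial genome were higher with pizotifen in part. All 13 protein genes had a positive difference, with a median of 0.50, and 7 were called, where 7.97% of all genes were higher with pizotifen. Cytochrome b, CYTB, read 15.44, 15.53 and 15.32 with pizotifen and 14.58, 15.15 and 14.49 with meclizine, with no overlap and a difference of 0.69 ± 0.19 (SE, adjusted p = 0.0097). Against haloperidol the median of the 13 was 0.06 with pizotifen and -0.47 with meclizine, and 4 were called lower with meclizine (12.8% of all genes). The vehicle reference gave other medians, 0.28 with pizotifen and -0.18 with meclizine. Against it 1 was called with pizotifen, higher, and 1 with meclizine, lower, where 17.9% and 26.8% of all genes were called. How each compound stood to untreated levels thus depended on the reference. The count of 7 varied with the samples used. Between the compounds, limma called none of the 13 without meclizine replicate 1, 1 without meclizine replicate 3 and 2 without pizotifen replicate 2. It called 4 without pizotifen replicate 1 or 3, and the other alternatives gave 3 to 11. Among nuclear genes of the respiratory chain, limma called none of 35 complex I subunits (median -0.09, 2 with an unadjusted p under 0.05) and none of 38 subunits of complexes II to V (median -0.05, 2 with an unadjusted p under 0.05). The difference was negative for 31 of the 35 and positive for 4, and negative for 30 of the 38 and positive for 8. Leaving out 1 sample gave at most 2 complex I subunits called higher with meclizine. Other settings gave at most 1 of complexes II to V in that direction. The median of complex I was -0.21 on day 1, 0.04 on day 2 and -0.05 on day 3.

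Of 26 glycolysis genes, 3 were higher with pizotifen, where 7.97% of all genes were, namely Ldha (0.29), Tpi1 (0.28) and Pgam1 (0.23), and none of the 26 was called without meclizine replicate 1 or without replicate 3 of either compound. Txnip, an arrestin that limits glucose uptake, read 9.79, 9.97 and 10.03 with pizotifen and 9.16, 9.73 and 9.22 with meclizine, below all 3 haloperidol samples (10.63, 10.47 and 10.70). It was higher with pizotifen by 0.56 (adjusted p = 0.00031), and differed from haloperidol by -0.67 with pizotifen and -1.23 with meclizine.

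Autophagy genes were called in both directions. The study examined autophagy in these cells by staining autophagic vacuoles and by LC3 protein, which RNA levels do not measure. Of 41 tested, 3 were higher with pizotifen (7.97% of all genes) and 7 with meclizine (8.26% of all genes), with a median of -0.03. Sqstm1, the autophagy receptor p62, read 13.06, 13.03 and 12.96 with pizotifen and 13.77, 13.44 and 13.74 with meclizine, without overlap (-0.63 ± 0.09 SE, adjusted p = 5.1e-06). The others were smaller, such as Ulk2 (-0.31), a kinase that starts autophagy, and Atg9a (0.19), a membrane scramblase. Map1lc3b, which encodes LC3, differed by -0.03 (adjusted p = 0.77). Without pizotifen replicate 1, meclizine replicate 1 or meclizine replicate 3, none was called higher with pizotifen, 1 was without pizotifen replicate 2, and the count of 7 was 4 without meclizine replicate 1 and 3 without meclizine replicate 3. Of 32 lysosomal genes, 3 were higher with meclizine, where 8.26% of all genes were, namely the proteases Ctsl (-0.29) and Ctsb (-0.24) and the channel gene Mcoln1 (-0.16), with 5 called without pizotifen replicate 1 and 6 without meclizine replicate 2. Of 16 vacuolar ATPase subunits, 1 was called in each direction, Atp6v0a1 (0.39) and Atp6v1g1 (-0.21), where 16.2% of all genes were called. The latter was not called without replicate 1 of either compound, and 2 subunits were higher with pizotifen without replicate 2 of either.

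Iron storage and other antioxidant genes were higher with meclizine in part. Of 17 targets of the antioxidant factor NRF2, 6 were called in that direction (median -0.08), where 8.26% of all genes were. Fth1, ferritin heavy chain, read 13.52, 13.56 and 13.46 with pizotifen and 14.33, 14.07 and 14.39 with meclizine, while haloperidol read 13.72, 13.49 and 13.55. The difference was -0.75 ± 0.08 (SE, adjusted p = 1.3e-08). Hmox1, heme oxygenase, differed by -0.58, Gclc, of glutathione synthesis, by -0.54 and the ferritin light chain gene Ftl1 by -0.50. Ferritin genes have many pseudogene copies and the Ftl1 entry of the table carries a second gene name, so reads could be split among them. Nqo1, another NRF2 target, was not called (-0.25), nor was Nfe2l2 itself (0.03). The metallothioneins Mt2 (-0.61) and Mt1 (-0.34) were higher with meclizine, and neither was called without replicate 3 of either compound, and 1 was without meclizine replicate 1 or pizotifen replicate 2.

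Most early response genes were higher with pizotifen. Of 25 immediate-early genes and feedback genes of the ERK kinase, 14 were called in that direction and 1, Myc, in the other. The shares over all genes were 7.97% and 8.26%, and the median difference of the list was 0.32. The count of 14 was 8 without meclizine replicate 3. Egr1, a transcription factor induced by ERK, read 10.72, 10.60 and 10.53 with pizotifen and 9.85, 10.16 and 9.71 with meclizine, without overlap (0.71 ± 0.11 SE, adjusted p = 1.7e-05). Its haloperidol samples, at 10.29, 10.26 and 10.30, lay between the 2 groups. Egr2 was higher by 0.65 and the phosphatase Dusp1 by 0.56. Myc, which promotes growth, read 8.89, 9.15 and 9.04 with pizotifen and 9.76, 9.63 and 9.67 with meclizine, and was above haloperidol with both, by 0.42 and 1.08.

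Most cell division genes were higher with pizotifen than with meclizine. Of 30 proliferation genes, 22 were higher with pizotifen and 1, Mcm2 (-0.14), with meclizine, where 7.97% and 8.26% of all genes were. The median difference was 0.34. Mcm2 was not called without meclizine replicate 1 or 3 or pizotifen replicate 2 or 3, nor with the 6 samples fitted alone. Against haloperidol, 1 of the 30 was called with pizotifen, lower (7.12% of all genes being lower, median of the list -0.02). With meclizine 23 were lower and 1 was higher (median -0.35), where 12.8% and 12.9% of all genes were. Mki67, a marker of cycling cells, read 11.41, 11.28 and 11.31 with pizotifen, 10.70, 11.14 and 10.80 with meclizine and 11.50, 11.52 and 11.50 with haloperidol. Ccna2, cyclin A2, was higher with pizotifen than with meclizine by 0.52, the ribonucleotide reductase subunit Rrm2 by 0.52 and the mitotic kinase gene Plk1 by 0.47. The other genes of the replication helicase, Mcm3, Mcm4, Mcm5, Mcm6 and Mcm7, lay between -0.02 and 0.11, and none of them was called. In a bulk sample, fewer dividing cells and less of each RNA per dividing cell cannot be told apart.

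Calls among the remaining lists are read against the 7.97% of all genes that were higher with pizotifen and the 8.26% higher with meclizine. Of 15 p53 targets, 4 were higher with pizotifen, Gtse1 (0.41), Btg2 (0.36), Tnfrsf10b (0.24) and Pmaip1 (0.23), with 1 called without meclizine replicate 3 and 2 without meclizine replicate 1. Of 15 collagen genes, 3 were higher with pizotifen, Col8a1 (0.62), Col5a2 (0.47) and Col4a2 (0.29), and 7 were with the 6 samples fitted alone. Hypoxia-inducible genes split, with the prolyl hydroxylases P4ha1 (0.33) and P4ha2 (0.33) and the peptide gene Adm (0.27) higher with pizotifen and Ero1l (-0.47) and Ndrg1 (-0.46) higher with meclizine, of 15. The count towards pizotifen was 1 without meclizine replicate 3 and 5 without pizotifen replicate 1 or meclizine replicate 2. Among 15 clock genes, 6 were higher with meclizine, led by Ciart (-0.69) and Dbp (-0.45), and 2 with pizotifen, Bhlhe40 (0.39) and Per1 (0.19), in samples collected at matched labelled times. Without meclizine replicate 1 or 3 the count of 6 was 3, and without replicate 3 of either compound or pizotifen replicate 1 the count of 2 was 1. Limma called none of 20 interferon-stimulated genes (1 with an unadjusted p under 0.05, and 5 called with the 6 samples fitted alone) and none of 12 imprinted genes (3 with an unadjusted p under 0.05, and 2 called with the 6 samples fitted alone).

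**Figure D5:**
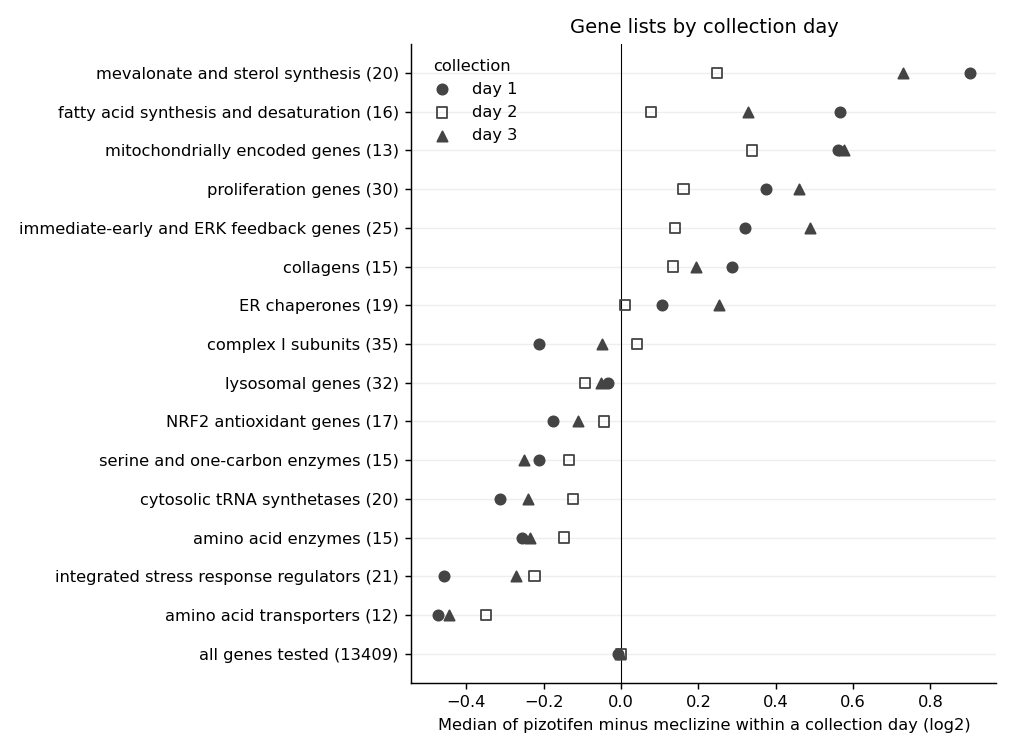
The x axis is the median log2 difference, pizotifen minus meclizine, over the tested genes of each list (numbers in brackets) within collection days 1 (circles), 2 (open squares) and 3 (triangles). Sterol synthesis lies at 0.90, 0.25 and 0.73 and amino acid transporters at -0.47, -0.35 and -0.44, and day 2 is nearest to 0 for most lists, although not for lysosomal genes.

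The labelled cell type was checked against its markers in the 6 samples. Of 10 neural progenitor markers 9 were in the table and 3 had a mean over 6, with Vim between 15.16 and 15.44, Nes between 4.63 and 5.19, Sox2 between 4.79 and 5.12 and Fabp7 under 1. Of 10 striatal neuron markers, 1 had a mean over 6, Foxp1, and Drd1 lay below 0. Of 10 mesenchymal markers 6 had a mean over 6, and Col1a1 lay between 14.05 and 14.48. Of 7 microglial markers 2 had a mean over 6, Ptprc (10.02 to 10.31) and Tmem119 (6.75 to 7.91), while Aif1, Cx3cr1 and P2ry12 lay below 0. Between the compounds, marker genes that were called were Hes1 (0.36), Vim (0.21) and Tmem119 (0.70), higher with pizotifen, and Msi2 (-0.25), higher with meclizine. Hes1 was not called without meclizine replicate 1, Msi2 without replicate 1 of either compound or meclizine replicate 3, and Vim without any 1 of the 6 samples. The summed level of the progenitor list ran from 15.40 to 15.46 with pizotifen and from 15.19 to 15.26 with meclizine. That of the mesenchymal list ran from 14.99 to 15.11 and from 14.80 to 14.83. Such sums add linear values and so follow the highest member of a list, here Vim (means of 15.40 and 15.19) and Col1a1. Of the 8 progenitor markers tested, 5 had a negative difference and 3 a positive one, with a median of -0.06. None of the 8 mesenchymal genes tested was called by limma (2 with an unadjusted p under 0.05), and Col1a1 differed by 0.31 and Dcn by -0.38. The astrocyte sum lay lower with pizotifen (at most 7.27, against at least 7.28 with meclizine), as did the oligodendrocyte sum (4.29 to 4.39 against 4.42 to 4.54), while the microglial, endothelial and striatal neuron sums overlapped. The part of these levels in the differences above was not tested.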

How the data were processed

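The log2 abundances analysed here are those deposited by the authors. They prepared poly(A) libraries with a directional kit, sequenced single-end reads, trimmed them with Trimmomatic 0.36, aligned them to the GRCm38.p5 transcriptome and quantified genes with RSEM. The transformation behind the deposited log2 values is not given in the sources used here, and low values hardly vary, so differences of low genes are shrunken. Whether counting used strand is not stated.

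Of 27281 rows, 18178 carry a symbol and 13409 of these had a mean of at least 1 and were tested. With limma 3.58.1 in R 4.3.3, 16 conditions and the collection day were fitted to 48 samples (30 residual degrees of freedom, variances with a trend), and p-values were two-sided. By the labels, replicate numbers of pizotifen and meclizine share collection day and time. Their deviations from the group means correlated at -0.13, -0.17 and 0.04.

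Named genes are Hrh1, Htt, the 10 highest and 10 lowest calls whose mean over the 6 samples reached 6 and whose sign was shared by the 3 slots, and up to 4 called members of each of 39 lists with the largest difference; other list members are named for their role, and 6 genes are not reported here. Members and lists were chosen with earlier results of these data known. Positions are from GENCODE M21 and promoters from RefSeq (250 bases before to 50 after the start). The fit was tested on simulated data with independent noise for each gene and sample. The simulation held no shift shared by many genes of a sample, so it did not test the fit for such shifts. Figures used matplotlib 3.10.9.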

Additional observations from a re-analysis of the deposited data

How the results depend on the processing

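The count of genes called between pizotifen and meclizine was 2177 and lay between 1948 and 2392 under other filters, scalings, terms and variance models, except for 1709 with the 6 samples fitted alone. Without a replicate block (no collection day term) it was 2370, and with the replicate number as the block 2204. Both compounds have the same days and replicate numbers, so the block could not change a difference, only its p-value. Leaving out 1 sample gave 1087 to 2453, with the lowest count without meclizine replicate 3, and fewer samples enter those fits. Against haloperidol the leave-one-out counts were 1275 to 1565 for pizotifen, the lowest without haloperidol replicate 3, and against vehicle 1376 to 2151, the lowest without STHdhQ111 vehicle replicate 1. For meclizine against either reference no count moved by over 1.5 times. Of the 119 named genes, 86 kept their side of the threshold under all 16 alternatives and 32 lost it under some, most often Atg10, ND3, Arrdc4 and Vim. The difference of Hrh1 was 0.0051 without meclizine replicate 1 (adjusted p = 0.96), the only change of sign, and -0.047 without meclizine replicate 3. Depth is unknown, so no counting error could be given.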
